A study of Mus musculus with 14 samples.

Results

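The 34 genes described here encode proteins that copy DNA in S phase or bring a cell into it. They were taken by name from a mouse count table of 33459 gene IDs, and all 34 were present. By role, 8 genes act in origin licensing, 5 in helicase activation, 5 in nucleotide supply, 9 as polymerase, clamp, clamp loader or ligation genes, 3 in chromatin assembly and methylation upkeep, and 4 as regulators of the step from G1 to S. The study asked how loss of Fhl2, a LIM-domain cofactor of transcription factors, changes gene expression in fat and heart of mice on a fattening diet. The groups were gonadal white adipose tissue (gWAT) of FHL2-/- mice (KO, replicates 1, 3 and 4) and of WT mice (replicates 1, 3 and 4), and heart of KO mice (replicates 1 to 4) and of WT mice (replicates 1 to 4). All mice were C57BL/6, 21 weeks old and fed the high-fat diet for 8 weeks, so no group ate another diet. The labels do not give the sex, the extent of the deletion or whether libraries are from separate animals, and p-values therefore measure the spread between these samples, which may be technical.

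Before S phase, the origin recognition complex, CDC6 and CDT1 load the ring-shaped MCM complex onto DNA. The kinase CDC7 and cyclin-dependent kinases then turn it into an active helicase together with CDC45 and GINS, and polymerases follow with the sliding clamp PCNA. Many of these genes are transcribed under E2F factors, so they rise together when a cell enters the cycle. Adult heart muscle cells seldom divide, whereas the fat of obese mice is known to hold dividing macrophages and precursor cells.

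Each library held 15105019 to 16040188 reads in gWAT and 10835092 to 13272412 in heart. Levels are in CPM, read counts divided by library size, which was scaled between libraries of a tissue by TMM. The labels were checked first with Fhl2, which was at 0.390 ± 0.115 CPM in KO gWAT and 5.43 ± 0.980 CPM in WT gWAT (SD, n = 3 each), and at 34 ± 3.89 CPM in KO heart and 1197 ± 176 CPM in WT heart (SD, n = 4 each). Myh6, the heart muscle myosin, was high in heart, and Adipoq, the fat cell hormone adiponectin, was high in gWAT. WT gWAT replicate 1 stood between the KO libraries and the other WT libraries for most of the replication genes. WT gWAT replicate 3 held transcripts of sperm-forming cells: Prm1, Prm2 and Tnp1, which package or replace histones in spermatids, were at 3.07, 3.13 and 1.44 CPM there and at no more than 0.322 CPM in the other gWAT libraries. The part of those cells in the results was not tested.

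Promoter sequence was compared first, because E2F binding is the shared input known for this group of genes. RefSeq promoters (build GRCm38.p6, 250 bases before to 50 after the start of transcription) were at hand for 29 of the 34 genes. An E2F-type motif was taken as TTTGGCGC, TTTCCCGC, TTTGCCGC or TTTCGCGC on either strand, and motifs may overlap. It was found for 11 of the 29 genes (37.9%), against 704 of 27025 genes in the whole promoter table (2.60%). The CCAAT box, the letters CCAAT on either strand, was in 19 of the 36 promoters of these genes (52.8%), against 37.4% of all promoters. A CHR-type motif, TTTGAA or TTCGAA, was in 8 of the 36 (22.2%), against 19.2% of all. A match describes letters only and is not a measured binding site.

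The stretches below come from the 6 genes that both held an E2F-type motif and fell in KO gWAT. They run 5′ to 3′ on the gene's own strand, with the motifs in capitals. Those of Uhrf1, Mcm6 and Mcm5 lie before the start of transcription, and those of Cdt1, Mcm3 and Lig1 lie just after it. Uhrf1 and Lig1 have several promoters each. Their stretches and starts belong to a single promoter, and their other promoters hold no E2F-type motif.
Uhrf1 (chr17:56304103-56304160, plus strand): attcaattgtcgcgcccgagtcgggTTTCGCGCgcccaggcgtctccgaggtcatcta
Mcm6 (chr1:128359720-128359840, minus strand): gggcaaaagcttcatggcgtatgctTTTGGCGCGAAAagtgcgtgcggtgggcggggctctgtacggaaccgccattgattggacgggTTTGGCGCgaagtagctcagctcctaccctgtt
Mcm5 (chr8:75109331-75109392, plus strand): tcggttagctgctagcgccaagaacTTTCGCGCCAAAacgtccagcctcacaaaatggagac
Cdt1 (chr8:122568036-122568064, plus strand): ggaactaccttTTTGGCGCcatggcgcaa
Mcm3 (chr1:20820265-20820294, minus strand): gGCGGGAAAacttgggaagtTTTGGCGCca
Lig1 (chr7:13278841-13278870, plus strand): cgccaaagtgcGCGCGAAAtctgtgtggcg
Mcm6 and Mcm5 each hold a run of capitals in which motifs of opposite strands overlap, and Mcm6 holds a further motif nearer the start.

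In KO gWAT the replication genes were lower as a group. These genes and the lists further below were chosen with earlier results of these data known. Their shares beside those of all genes are therefore descriptions. After edgeR's quasi-likelihood test with Benjamini-Hochberg adjustment over 15200 genes, 14 of the 34 genes (41.2%) fell, where 3.48% of all tested genes fell, and 0 rose, where 2.01% of all rose. The log2 fold change of KO over WT was negative for 34 of 34 genes, against 7597 of the 15200, and its median was −0.74, against 9.3e-05 over all genes. Among the 14, 11 were at least 2-fold lower (32.4% of the 34 genes, against 2.32% of all). An unadjusted p under 0.05 with a lower level was found in 26 genes (76.5%, against 12.7% of all), so 12 of these did not pass after adjustment. In 28 of the 34 genes the KO libraries all lay below the WT libraries (82.4%, against 14.5% of all genes). Because whole tissue was sequenced, fewer dividing cells and less RNA per cell cannot be told apart.

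**Figure D1:**
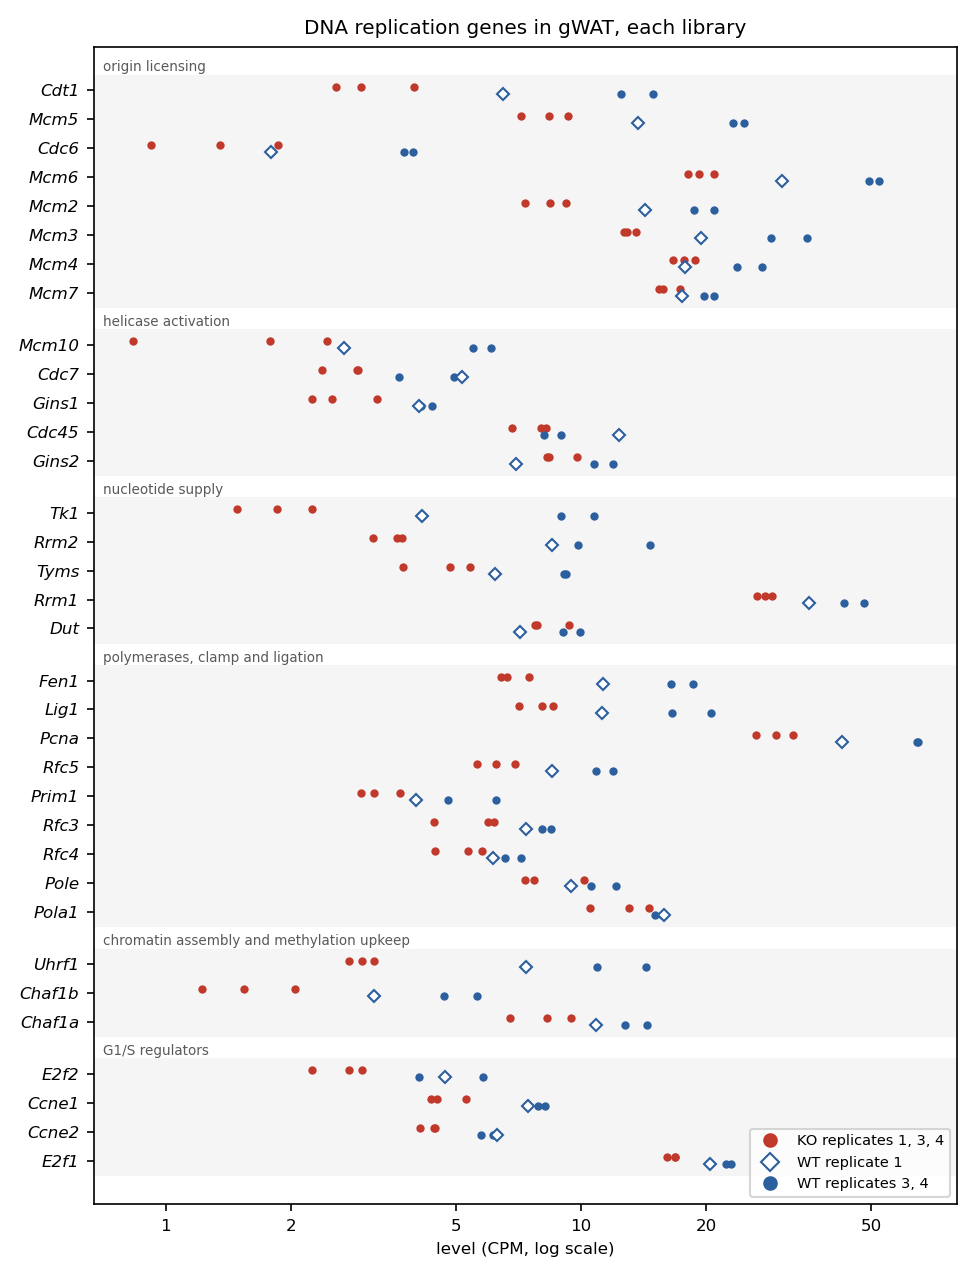
Level of each replication gene in each gWAT library, in CPM on a log axis, with KO libraries as red dots, WT replicate 1 as an open diamond and WT replicates 3 and 4 as blue dots. KO and WT values stand apart for 28 of the 34 genes, and WT replicate 1 is the lowest WT library for 29.

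Of the origin licensing genes 5 of 8 were lower, with a median log2 fold change of −1.15. Mcm2, a subunit of the MCM ring, was at 7.33, 9.18 and 8.44 CPM in KO gWAT, against 14.3, 21.0 and 18.7 CPM in WT gWAT. The groups did not overlap, and its log2 fold change was −1.11 ± 0.18 (SE, adjusted p = 0.0253). Mcm6, for another subunit of the ring, was at 18.1, 19.2 and 20.9 CPM in KO gWAT, against 30.4, 52.3 and 49.2 CPM in WT gWAT. It fell by 1.18 ± 0.20 on the log2 scale (adjusted p = 0.0260), with the lowest WT value in replicate 1. Mcm5 was at 8.39, 9.31 and 7.15 CPM in KO gWAT, against 13.7, 24.6 and 23.3 CPM in WT gWAT. Its log2 fold change was −1.31 ± 0.23 (adjusted p = 0.0271), again with no overlap and with WT replicate 1 nearest to KO. Cdt1, the loading factor that is destroyed once S phase begins, averaged 3.16 ± 0.716 CPM in KO gWAT and 11.3 ± 4.33 CPM in WT gWAT (SD, n = 3 each), and fell by 1.84 ± 0.32 (adjusted p = 0.0271).

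The subunits of the MCM ring, which takes them up in equal numbers, did not all give the same value. Mcm3 fell by 1.09 ± 0.20 on the log2 scale (adjusted p = 0.0288), close to Mcm2, Mcm5 and Mcm6. Mcm4 had a log2 fold change of −0.37 ± 0.16 and Mcm7 of −0.26 ± 0.12, and neither passed (adjusted p = 0.220 and 0.235). For Mcm4 the groups overlapped, since KO replicate 3 was at 18.8 CPM and WT replicate 1 at 17.8 CPM. Scaled by exon length, mean levels of Mcm2 to Mcm7 in number order were 1.20, 3.48, 4.94, 2.07, 4.16 and 3.65 CPM per kb in KO gWAT, against 2.59, 7.40, 6.38, 5.15, 9.43 and 4.38 CPM per kb in WT gWAT. On this scale Mcm4 had the highest level of the ring genes in KO gWAT, and Mcm6 in WT gWAT. The length counts all annotated exons of a gene, so ranks between genes depend on the annotation. Without length scaling, Mcm6 lay above Mcm4 in KO gWAT, at a mean of 19.4 against 17.7 CPM. These differences between subunit genes were seen in the data and were not tested. Cdc6, which helps load the ring, was at 0.924 to 1.87 CPM in KO gWAT and 1.79 to 3.94 CPM in WT gWAT, and did not pass (log2 fold change −1.20 ± 0.39, adjusted p = 0.109).

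None of the 5 helicase activation genes passed, although all had negative values and the median log2 fold change was −0.65. At an unadjusted p under 0.05, 3 of the 5 were lower. Mcm10, which helps start unwinding, was at 1.78, 0.835 and 2.45 CPM in KO gWAT, against 2.69, 5.51 and 6.06 CPM in WT gWAT. The groups did not overlap but the KO libraries differed widely, and the log2 fold change of −1.49 ± 0.43 gave an adjusted p of 0.0818. Cdc7, the kinase that activates the ring, was at 2.91, 2.89 and 2.38 CPM in KO gWAT, against 5.18, 4.94 and 3.64 CPM in WT gWAT, and here WT replicate 1 was the highest WT library. Gins1, a GINS subunit, was at 2.51, 2.25 and 3.22 CPM in KO gWAT, against 4.07, 4.38 and 4.12 CPM in WT gWAT, with little spread among WT. Their log2 fold changes were −0.75 ± 0.23 for Cdc7 (adjusted p = 0.0930) and −0.65 ± 0.22 for Gins1 (adjusted p = 0.118). Cdc45 (−0.35 ± 0.19) and the GINS subunit gene Gins2 (−0.17 ± 0.21) had overlapping groups. Gins2 shares 67.3% of its exon bases with Gse1 on the opposite strand, and reads of the 2 genes cannot be told apart if strand was not used in counting.

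Of the nucleotide supply genes, 3 of 5 fell. Rrm2, the S phase subunit of ribonucleotide reductase, which makes deoxyribonucleotides, was at 3.70, 3.60 and 3.16 CPM in KO gWAT, against 8.49, 14.6 and 9.82 CPM in WT gWAT. All KO values lay below all WT values, with a log2 fold change of −1.66 ± 0.24 (adjusted p = 0.0219). Tk1, the thymidine kinase of S phase, was at 1.85, 2.25 and 1.48 CPM in KO gWAT, against 4.14, 10.8 and 8.97 CPM in WT gWAT. It had the most negative value of the 34 genes, −2.10 ± 0.37 (adjusted p = 0.0271), and WT replicate 1 was at 42.0% of the mean of WT replicates 3 and 4. Rrm1, the large subunit of the same reductase, was at 26.5, 28.8 and 27.8 CPM in KO gWAT, against 35.3, 47.9 and 42.9 CPM in WT gWAT, and fell by 0.60 ± 0.13 (adjusted p = 0.0385). Tyms, which makes thymidylate, had a log2 fold change of −0.81 ± 0.23 and did not pass (adjusted p = 0.0748), and a pseudogene of it, Tyms-ps, is also in the count table. Dut, which removes dUTP, had the value nearest to 0, at −0.07 ± 0.18 (adjusted p = 0.860), with 7.73 to 9.38 CPM in KO gWAT and 7.11 to 9.95 CPM in WT gWAT.

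At the fork, 3 of 9 polymerase, clamp and ligation genes fell, and all of these act on the clamp or on joining lagging strand pieces. Fen1, the flap nuclease, was at 6.40, 7.51 and 6.64 CPM in KO gWAT, against 11.3, 18.6 and 16.4 CPM in WT gWAT. Pcna, the sliding clamp, was at 26.4, 29.4 and 32.5 CPM in KO gWAT, against 42.4, 64.7 and 64.4 CPM in WT gWAT. Lig1, the ligase that joins the pieces, was at 8.06, 8.54 and 7.09 CPM in KO gWAT, against 11.3, 20.5 and 16.6 CPM in WT gWAT. In each of these genes the groups stood apart and WT replicate 1 was the lowest WT library. The log2 fold changes were −1.18 ± 0.20 for Fen1 (adjusted p = 0.0267), −0.96 ± 0.18 for Pcna (adjusted p = 0.0285) and −1.03 ± 0.22 for Lig1 (adjusted p = 0.0385). Fen1 shares 78.8% of its exon bases with the antisense gene Gm10143. Reads of both genes cannot be told apart there if strand was not used in counting. A pseudogene of Pcna, Pcna-ps2, is also in the table. The polymerase and primase genes Pola1, Pole and Prim1 and the clamp loader genes Rfc3, Rfc4 and Rfc5 did not pass, with log2 fold changes of −0.29, −0.35, −0.62, −0.53, −0.35 and −0.74, and Rfc5 came nearest (adjusted p = 0.0541).

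Behind the fork, Uhrf1, which brings the maintenance DNA methyltransferase to newly copied DNA, had the smallest p of the 34 genes. It was at 3.17, 2.76 and 2.96 CPM in KO gWAT, against 7.39, 14.3 and 10.9 CPM in WT gWAT. The KO libraries lay close together and far below WT, and the log2 fold change was −1.87 ± 0.26 (adjusted p = 0.0215). Chaf1b, a subunit of chromatin assembly factor 1, was at 2.05, 1.54 and 1.22 CPM in KO gWAT, against 3.18, 5.63 and 4.67 CPM in WT gWAT, and fell by 1.49 ± 0.30 (adjusted p = 0.0350). Its partner subunit gene Chaf1a was at 6.73, 8.28 and 9.47 CPM in KO gWAT, against 10.8, 14.5 and 12.8 CPM in WT gWAT. The Chaf1a groups did not overlap, but the log2 fold change of −0.64 ± 0.18 did not pass (adjusted p = 0.0758), and 52.5% of its exon bases overlap Ubxn6 on the opposite strand.

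Among the G1/S regulators, 1 of 4 fell. Ccne1, the cyclin E1 gene that drives entry into S phase, was at 4.36, 4.50 and 5.28 CPM in KO gWAT, against 7.46, 7.88 and 8.18 CPM in WT gWAT. Its log2 fold change was −0.73 ± 0.17 (adjusted p = 0.0439), the largest adjusted p among the 14 genes that passed. The activator gene E2f2 was at 2.97, 2.25 and 2.77 CPM in KO gWAT, against 4.69, 5.82 and 4.06 CPM in WT gWAT. E2f1, its relative, was at 16.8, 16.1 and 16.9 CPM in KO gWAT, against 20.4, 23.0 and 22.3 CPM in WT gWAT. Neither passed (E2f2 −0.87 ± 0.23, adjusted p = 0.0662; E2f1 −0.40 ± 0.11, adjusted p = 0.0699), although the groups stood apart in all 4 regulator genes. The remaining gene, Ccne2 for cyclin E2, had a log2 fold change of −0.49 ± 0.17 (adjusted p = 0.128). Of its exon bases, 17.4% overlap Ints8 on the opposite strand.

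The WT gWAT libraries were unequal. WT replicate 1 was the lowest of the 3 WT libraries for 29 of the 34 genes (85.3%, against 42.4% of all genes). In 24 genes it was lowest and still above every KO library (70.6%, against 9.69% of all genes). Summed over the 34 genes, the level was 274, 289 and 288 CPM in KO gWAT, against 391, 568 and 517 CPM in WT replicates 1, 3 and 4. The median gene was at 72.3% of the mean of WT replicates 3 and 4 in WT replicate 1, and KO gWAT was at 59.8% of the WT mean and at 69.1% of WT replicate 1. KO libraries varied less: the median SD was 11% of the mean in KO gWAT and 20.7% in WT gWAT. In G1/S regulators WT replicate 1 stood closer to the other WT libraries, at 90.2% to 106% of their mean (median 93.9%). It was the highest WT library for 1 of these 4 genes. In helicase activation genes WT replicate 1 went both ways, from 46.5% of that mean for Mcm10 to 144% for Cdc45, with a median of 95.8%. It was the highest WT library for 2 of these 5 genes. Without WT replicate 1, 22 of the 34 genes passed, and 1707 of all genes were then lower, against 529 with every library. Without WT replicate 3, 2 passed and 33 of 34 values were negative, and 87 of all genes were lower. Without WT replicate 4 or without KO replicate 1, 3 or 4, 0 passed and 0 of all genes were lower. In these 5 fits 22 to 27 of the 34 genes had an unadjusted p under 0.05 in edgeR, and with any library left out the median log2 fold change was between −0.81 and −0.70.

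Markers of some other cells also differed between these libraries. Among all tested genes, 3.48% were lower and 2.01% higher after adjustment. Unadjusted, 12.7% of all were lower and 10.4% higher at p under 0.05 in edgeR. Of 8 markers of lipid-associated macrophages, the phagocytes that gather around fat cells in obesity, 6 were lower, and their summed level was 698 to 788 CPM in KO gWAT, against 1349, 5703 and 4181 CPM in WT replicates 1, 3 and 4. General macrophage markers summed to 2158 to 2394 CPM in KO gWAT and to 2507, 5197 and 4098 CPM in the same WT libraries, with 3 of 12 lower. No marker of either list was at 0 in any gWAT library. T cell markers summed to 7.41 to 16.4 CPM in KO gWAT and 10.9 to 16.2 CPM in WT gWAT, with 0 of 6 passing in edgeR and 1 at an unadjusted p under 0.05. Markers of mesothelium, the cell layer that covers the fat pad, ran the other way: 2 of 5 were higher, all 5 were higher at an unadjusted p under 0.05, the median log2 fold change was 1.12, and they summed to 304 to 511 CPM in KO gWAT and 111 to 242 CPM in WT gWAT. B cell markers summed to 5.09 to 20.2 CPM in KO gWAT and 4.83 to 6.69 CPM in WT gWAT, with 0 of 4 passing in edgeR and 1 at an unadjusted p under 0.05. Fat cell markers summed to 29327 to 32894 CPM in KO gWAT and 21895 to 32124 CPM in WT gWAT, and 1 of 7 was higher. Of 6 adipose progenitor markers 0 passed in edgeR, with a median log2 fold change of 0.13. At an unadjusted p under 0.05, 2 of them were higher and 1 was lower. Of 5 endothelial markers 0 passed, with a median of 0.06. Among 5 neutrophil markers only S100a8 was tested, and it did not pass. It was at 4.05 to 4.42 CPM in KO gWAT, against 22.3, 7.51 and 9.82 CPM in WT replicates 1, 3 and 4. The part of these cells in the fall of the replication genes was not tested. Without WT replicate 3, the library with the spermatid transcripts, the median log2 fold change of the replication genes was −0.70.

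**Figure D2:**
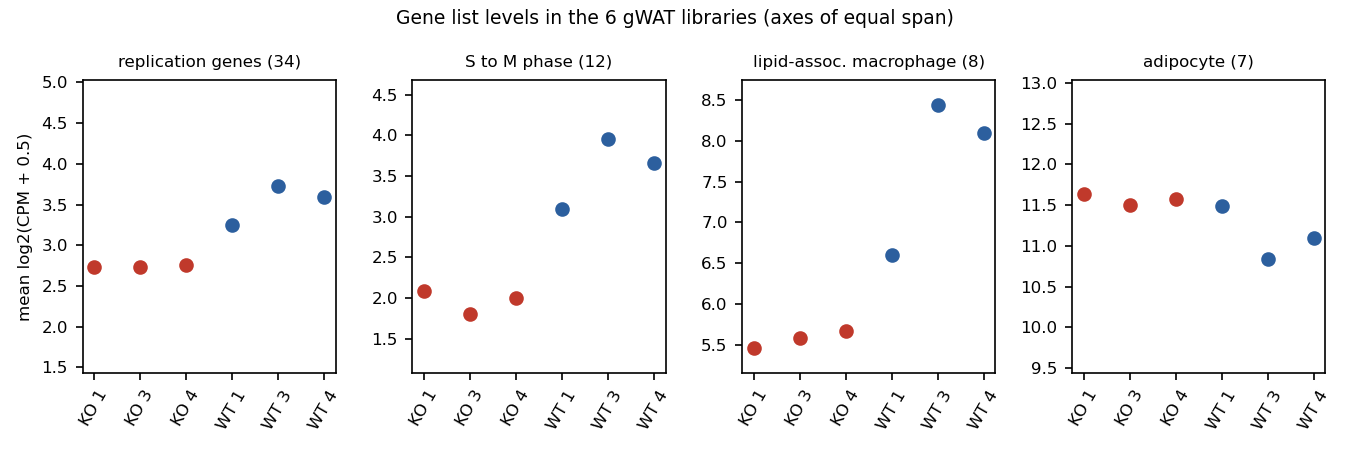
Mean log2(CPM + 0.5) of the 34 replication genes and of S to M phase, lipid-associated macrophage and adipocyte markers in each gWAT library, KO in red and WT in blue, with axes of equal span. The replication genes were at 2.73, 2.74 and 2.76 in KO gWAT and at 3.25, 3.73 and 3.59 in WT replicates 1, 3 and 4, and WT replicate 1 is also the WT library nearest to KO in the other panels.

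Beyond these 34, the wider replication and cell cycle machinery was followed in 94 further genes, of which 92 were tested. In KO gWAT 21 of the 92 fell and 0 rose, where 3.48% of all tested genes fell and 2.01% rose. The median log2 fold change was −0.25, with 72 negative and 20 positive values, where 7597 of the 15200 tested genes were negative. Of the 21, 12 were the S to M phase markers, all 12 of which fell, with the smallest p-values in Ccna2, Cdk1, Top2a and Mki67. Among the other origin genes 3 of 15 fell: Dbf4, the partner of CDC7, by 1.26 ± 0.22 on the log2 scale, Ticrr, which helps load CDC45, by 1.88 ± 0.39, and Gmnn, the inhibitor of CDT1, by 1.08 ± 0.23. The helicase gene Recql4 did not pass, at −1.15 ± 0.38. Other lists held 1 gene each that passed. Those were Clspn, the checkpoint mediator claspin, at −2.11 ± 0.37 among 10 fork protection genes, Wdhd1, which ties polymerase alpha to the helicase, at −1.14 ± 0.26 among 22 polymerase genes, Asf1b, a histone chaperone, at −1.43 ± 0.26 among 9 supply genes, and E2f8, an E2F repressor, at −1.85 ± 0.32 among 11 E2F and pocket protein genes.

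Of 13 G1 cyclins, kinases and inhibitors, 2 fell, where 3.48% of all tested genes fell. Those were Cdk6, a kinase of early G1, by 1.01 ± 0.19, and Ccnd1, its cyclin D1 partner, by 0.89 ± 0.18. The CDK inhibitor genes Cdkn2b and Cdkn1a had log2 fold changes of −0.58 ± 0.15 and −0.41 ± 0.14 and did not pass. A value of the opposite sign came from Rrm2b, the reductase subunit that serves cells outside S phase. It was at 24.5, 37.1 and 35.0 CPM in KO gWAT, against 23.3, 17.9 and 21.4 CPM in WT gWAT. All KO libraries lay above all WT libraries, but the log2 fold change of 0.63 ± 0.18 did not pass (adjusted p = 0.0780). Tfdp2, a dimer partner of E2F factors, likewise had a positive value that did not pass, 0.40 ± 0.14 (adjusted p = 0.136). The DNA methyltransferase gene Dnmt1, which UHRF1 recruits, was at 28.5, 28.3 and 28.8 CPM in KO gWAT, against 31.3, 68.5 and 53.1 CPM in WT gWAT, and did not pass either (−0.84 ± 0.25, adjusted p = 0.0852).

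**Figure D3:**
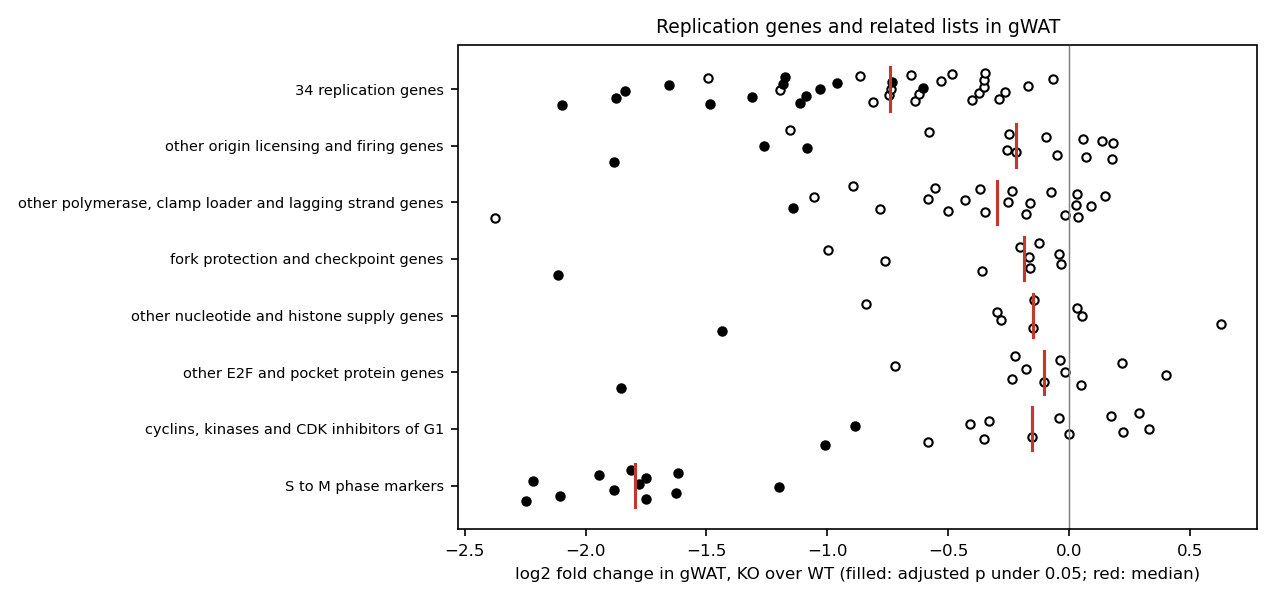
Log2 fold change of KO over WT in gWAT for each of the 34 replication genes and for 92 further genes in 7 lists, filled where the adjusted p was under 0.05, with the median of each row in red. The median was −0.74 for the replication genes and −1.80 for the S to M phase markers, and the medians of the other lists lie between −0.30 and −0.10.

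In the heart, no change of these genes passed. Of the 34 genes 31 had enough reads to be tested, which left out Mcm10, Chaf1b and Ccne1. In edgeR 0 of the 31 passed (0.00706% of 14159 genes did, that is, 1 gene, Fhl2), 2 were lower at an unadjusted p under 0.05 (6.45%, against 1.60% of all genes), and DESeq2 called 0 as well, with 1 under an unadjusted p of 0.05. The median log2 fold change was −0.09, with 21 negative and 10 positive values, where 7224 of the 14159 genes were negative. The 3 smallest p-values among negative changes belonged to Pola1, Uhrf1 and Cdc6. Pola1, the catalytic subunit of the priming polymerase, was at 6.72, 6.68, 6.43 and 7.82 CPM in KO heart, against 8.54, 8.03, 8.77 and 9.84 CPM in WT heart. Uhrf1 was at 1.33, 1.23, 1.19 and 0.757 CPM in KO heart, against 1.99, 1.76, 1.74 and 1.70 CPM in WT heart. In both genes all KO values lay below all WT values, with log2 fold changes of −0.35 ± 0.12 for Pola1 and −0.67 ± 0.25 for Uhrf1 (adjusted p = 0.9997 each).

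Such separation was seen in 3 of the 31 genes in heart, the third being Mcm6 (9.68%, against 1.17% of all genes). Mcm6 was at 12.2, 11.8, 12.1 and 9.09 CPM in KO heart, against 15.7, 12.6, 12.2 and 12.2 CPM in WT heart, so the groups nearly touched. Cdc6 overlapped and had a log2 fold change of −0.62 ± 0.31. The smallest p-values among positive changes belonged to Rfc3 (0.32 ± 0.25), Rrm2 (0.32 ± 0.35) and Ccne2 (0.14 ± 0.22). KO replicate 4 was the lowest KO heart library for 21 of the 34 genes. The share over all heart genes was not counted, so this does not set these genes apart from others. Heart libraries also differed by number: mesothelial markers summed to 155, 186, 41.7 and 80.4 CPM in KO replicates 1 to 4 and to 185, 244, 40.8 and 36.0 CPM in WT replicates 1 to 4, and their part in these values was not tested. Few reads per gene limit this comparison. Over the 4 libraries of a group each gene held 21 to 856 reads in KO heart and 29 to 943 in WT heart. In gWAT it was 64 to 1362 reads over the 3 KO libraries and 151 to 2711 over the 3 WT libraries.

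**Figure D4:**
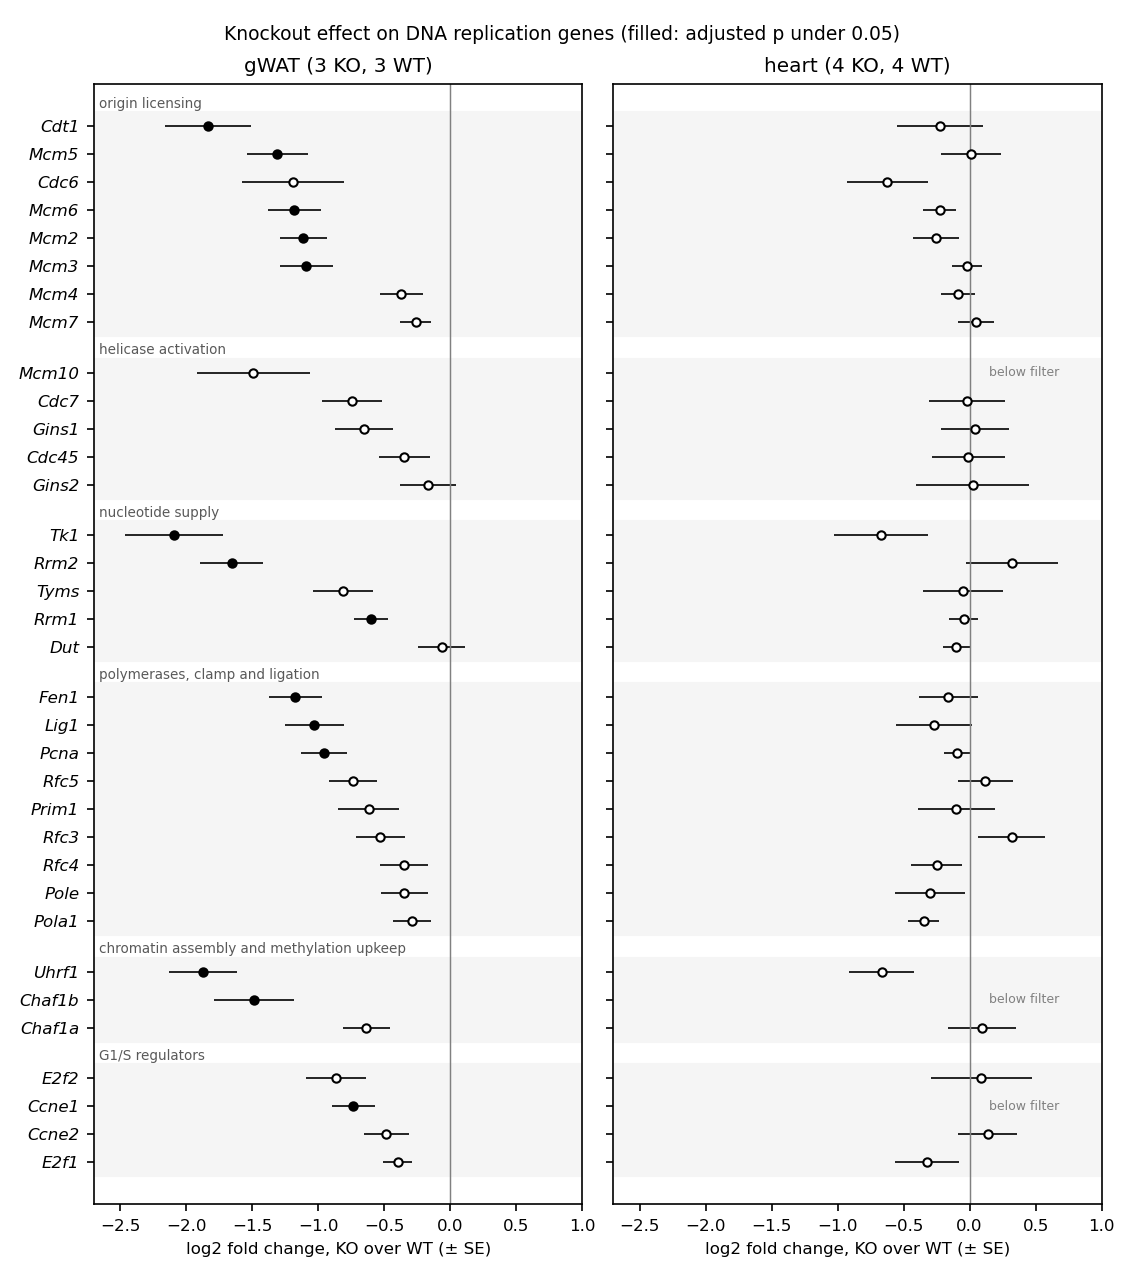
Log2 fold change of KO over WT with its SE for each replication gene in gWAT (left) and heart (right), filled where the adjusted p was under 0.05. All 34 values are negative in gWAT and 14 are filled, while 21 of 31 are negative in heart and none is filled.

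Whether the KO effect differed between the tissues was tested as an interaction in a fit of all 14 libraries. It passed for 3 of the 34 genes, all more negative in gWAT (8.82%, against 0.787% of 16014 genes), and for 0 in the other direction (0.362% of all). The effect in gWAT minus that in heart was −1.07 ± 0.22 for Mcm3 (adjusted p = 0.0337), −1.98 ± 0.43 for Rrm2 (adjusted p = 0.0410) and −0.86 ± 0.19 for Pcna (adjusted p = 0.0449). In heart, Rrm2 was at 2.19, 1.32, 2.54 and 1.43 CPM in KO and 1.33, 0.765, 2.26 and 1.70 CPM in WT, with overlap throughout. At an unadjusted p under 0.05, 17 of the 34 genes differed in this direction (9.07% of all genes did). The other 11 genes that fell in gWAT are therefore not shown to respond differently in heart. Leaving out WT gWAT replicate 1 gave 12 genes, leaving out WT heart replicate 3 gave 1, and leaving out any other library gave 0.

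Without the knockout, most of the replication genes were at a higher scaled level in fat than in heart. These CPM were scaled by TMM over the 7 WT libraries together, so they differ from the CPM given above for the same libraries. Of the 34 genes 32 were higher in WT gWAT than in WT heart (94.1%, against 36.1% of 15287 genes), 1 was lower (33.3% of all genes were), and the median log2 difference was 1.47. E2f1 differed most, at 16.9, 18.4 and 17.9 CPM in WT gWAT, against 1.81, 2.05, 1.93 and 2.37 CPM in WT heart, a log2 difference of 3.11 ± 0.14 (adjusted p = 1.31e-07). Gins2 and Ccne1 followed at 2.97 ± 0.27 and 2.95 ± 0.34. Dut was the exception, at 5.87, 7.93 and 7.23 CPM in WT gWAT, against 17.98, 15.7, 21.0 and 20.6 CPM in WT heart, a log2 difference of −1.42 ± 0.16 (adjusted p = 3.51e-05). Rfc4 did not pass (−0.27 ± 0.18), and 12.7% of its exon bases overlap Eif4a2 on the opposite strand. In 30 genes all WT gWAT libraries lay above all WT heart libraries (36.1% of all genes), in Dut they all lay below (33.8% of all), and the groups overlapped for Cdc6, Prim1 and Rfc4.

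**Figure D5:**
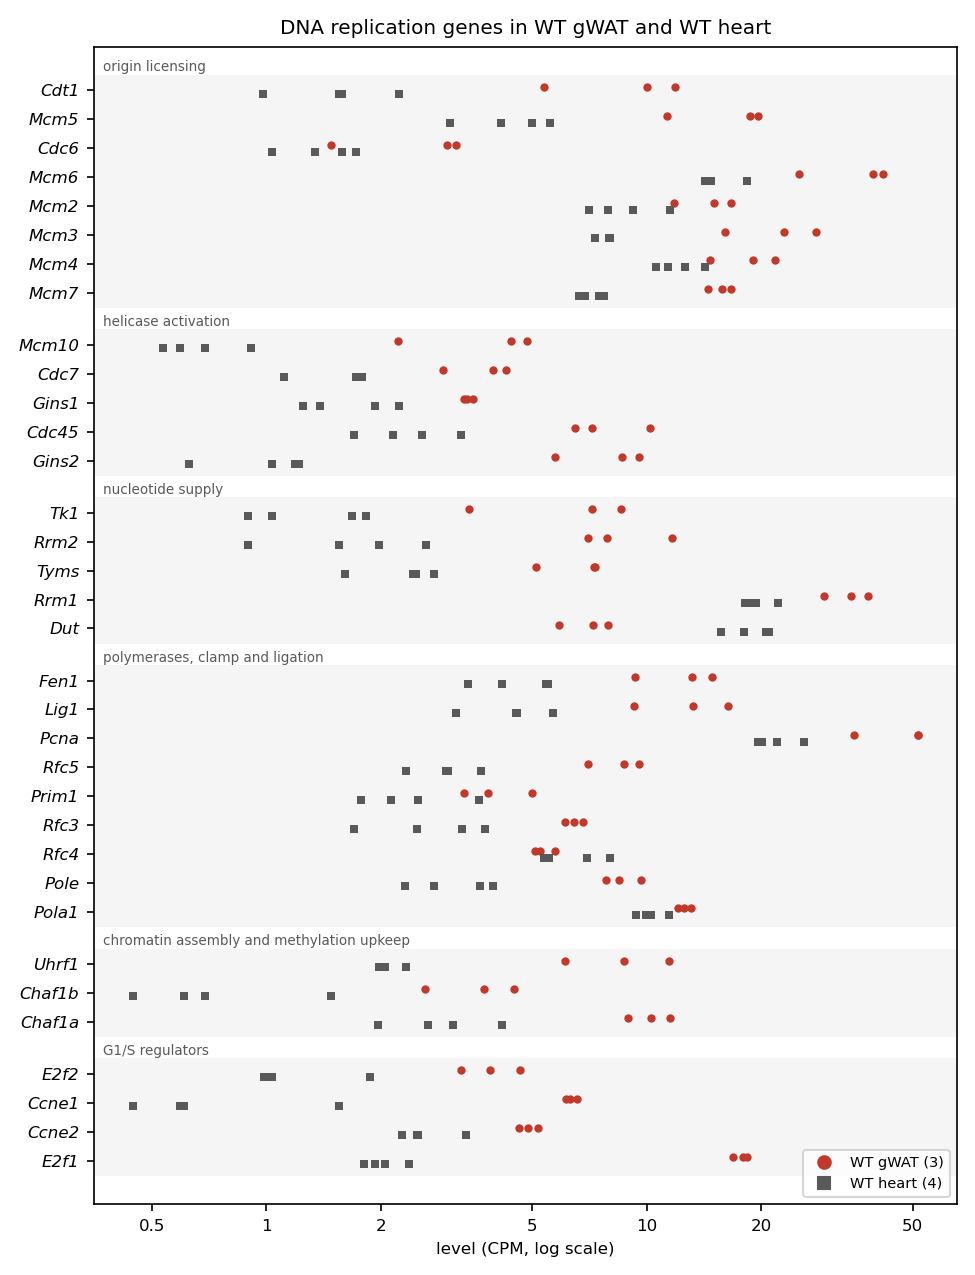
Level of each replication gene in the 3 WT gWAT libraries (red dots) and the 4 WT heart libraries (grey squares), in CPM on a log axis, scaled in a fit of these 7 libraries. Fat lies above heart for 30 of the 34 genes with no overlap, and Dut lies below.

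Promoter letters and response in gWAT were set side by side. Of the 11 genes with an E2F-type motif 6 fell, and their median log2 fold change was −1.09, with values between −1.87 and −0.26. Of the 18 genes with a promoter in the table and no such motif 8 fell, with a median of −0.74 and values between −2.10 and −0.07. The ranges overlap almost fully, and no test was made.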

How the data were processed

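The authors deposited raw read counts per Ensembl gene, whole numbers with no normalization, for 14 mRNA libraries. Per the submitters' processing notes, HISAT2 2.1.0, HTSeq 0.11.0, Trimmomatic 0.32, Picard, FastQC, limma and build mm10 were used, in roles the notes do not state. Whether counting used strand, and on which annotation release, is not given in the sources used here. Of 33459 IDs, 33406 carry a symbol, and the rest hold 0.0132% of reads. Replicates were compared pairwise, and all 18 pairs differed beyond sampling noise (lowest chi-square ratio to its degrees of freedom 3.74).

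Counts were tested in R 4.3.3 with edgeR 4.0.16 (filterByExpr, TMM, quasi-likelihood F test, Benjamini-Hochberg over all tested genes, threshold 0.05), within each tissue for KO against WT, with all 14 libraries for the interaction, and with the 7 WT libraries between tissues. SE is the fold change over the square root of F. The biological coefficient of variation was 0.168 in gWAT and 0.149 in heart. Exon lengths and overlaps come from GENCODE M21.

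Samples were grouped by their labels. In heart, equal replicate numbers deviated together (r from 0.258 to 0.374), although KO number 2 correlated best with WT number 1 and KO number 4 with WT number 3. The fits reported here hold no pairing. An alternative fit with the number as a block also gave 0 replication genes passing in heart. Alternatives were RLE scaling, no scaling factors, other filters, DESeq2 1.42.0, limma-voom 3.58.1, 1 fit of all libraries, the replicate block, other thresholds and leaving out each library.

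The members and lists were chosen with earlier results of these data known. In gWAT, the 3 genes with the smallest p per role are given by library, in heart the 3 in each direction, and up to 4 per wider list. Promoters are shown for up to 6 genes that fell and hold an E2F-type motif. Cdt1, Mcm3, Mcm4, Mcm7, Cdc6, Rrm2b and Dnmt1 were singled out in gWAT, and Rrm2 by library in heart, after their values were seen.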

Additional observations from a re-analysis of the deposited data

Results flagged for a closer look

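In heart, 6 of 68 groups of 4 libraries held a library far from the other 3, where chance gives about 1 in 20. Mcm6 was at 9.09 CPM in KO replicate 4, against 11.8 to 12.2 CPM in the other KO libraries, and at 15.7 CPM in WT replicate 1, against 12.2 to 12.6 CPM in the other WT libraries. Chaf1b was at 0.168 CPM in KO replicate 4, against 0.791 to 0.860 CPM in the others. Cdc7 was at 0.955 CPM in WT replicate 3 (others 1.47 to 1.53 CPM), E2f2 at 1.61 CPM in WT replicate 2 (others 0.848 to 0.884 CPM), and Ccne1 at 1.33 CPM in WT replicate 1 (others 0.382 to 0.521 CPM).

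The KO effect differed between gWAT and heart by an interaction test in edgeR for Mcm3 (−1.07), Rrm2 (−1.98) and Pcna (−0.86), as log2 effect in gWAT minus that in heart.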

How the results depend on the processing

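The 14 genes that fell in KO gWAT had negative values and an unadjusted p under 0.05 in every alternative run, while the adjusted p moved. The count of 14 was 9 with limma-voom and 0 at an adjusted p under 0.01, where 264 and 0 of all genes were lower. With the replicate number as a block it was 0, as it was for the 21 wider pathway genes and for all genes, with 25 replication genes at an unadjusted p under 0.05. In gWAT equal numbers did not deviate together (r = −0.114, −0.218 and 0.029). With so few libraries per group, these values cannot show whether equal numbers share more than a number. Leaving out a library gave 0 to 22 replication genes lower, 0 to 31 wider genes lower (7 without WT replicate 3) and 0 to 4 wider genes higher. At an adjusted p under 0.01, 0 wider genes were lower. Against 0 wider genes higher, 1 was higher with no filter, DESeq2, a fit of all 14 libraries or an adjusted p under 0.1. The 3 interaction calls became 6 with no filter or an adjusted p under 0.1, 7 with DESeq2, 0 with limma-voom or an adjusted p under 0.01, and 0 to 12 without a library. Among the 3 genes with the smallest p per role in gWAT, no log2 fold change reversed its sign in any run. The sign of the other replication genes was not followed singly, and without WT replicate 3 it was negative for 33 of 34 genes in all. The cause of the moves was not tested. The fits without a library also hold fewer samples. In heart 0 genes passed in every alternative, and in WT tissues 29 to 32 genes stayed higher in gWAT.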
